A study of Mus musculus with 21 samples.

Results

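Retinoic acid is made, broken down and sensed by a small set of proteins, and 9 genes that encode them are described here in cultured mouse testicular cells and smooth muscle cells. They were taken by symbol from a table of 19285 genes with expression values, and all 9 had values in every library: Rdh10, Aldh1a1, Aldh1a2, Aldh1a3, Cyp26b1, Crabp1, Crabp2, Stra6 and Rarb. Total RNA had been sequenced from 7 groups of 3 libraries each, 21 libraries in all. The testicular groups were peritubular myoid cells (PTM), which form a contractile layer around the seminiferous tubule, the Sertoli cells inside it, the Leydig cells between tubules, and germ cells. The other groups were smooth muscle cells of vessel (VSMC), intestine (ISMC) and trachea (TSMC). Every group came from C57BL/6J mice, with no added genotype and no treatment, and was grown as primary cells in DMEM/F12 with 10% fetal bovine serum. The age of the animals is not given in the labels. Per the series text, the smooth muscle cells were bought from a supplier, whereas cells of the testis were isolated as in cited work. Testicular origin and source of the cells therefore cannot be told apart where PTM is set against smooth muscle.

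Vitamin A reaches cells as retinol, which the membrane receptor STRA6 takes up from its carrier protein. The retinol dehydrogenase RDH10 oxidises retinol to retinal, and the retinal dehydrogenases ALDH1A1, ALDH1A2 and ALDH1A3 oxidise retinal to retinoic acid in a step that is not reversed. CYP26B1 breaks retinoic acid down, CRABP1 and CRABP2 bind it in the cytoplasm, and the nuclear receptor RARB is activated by it. In the testis retinoic acid drives the differentiation of spermatogonia and the entry into meiosis, and CYP26B1 in the fetal testis keeps germ cells out of meiosis.

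Abundance was given by the authors as FPKM, which divides fragments by transcript length and by the fragments mapped in the library, so genes can be compared per length. The depth inferred from the size of 1 fragment in these values was 17900000 to 20100000 fragments per library. Differences below are log2 fold changes of FPKM + 1 from one limma model of all libraries, with p-values adjusted by the Benjamini-Hochberg method over the 14444 genes tested. A gene was called where the adjusted p was under 0.05 and the log2 fold change reached 1 in either direction. The added 1 makes the fold change of weakly expressed genes too small. All 9 genes passed the filter of 1 FPKM in at least 3 libraries. Stra6 did so only through PTM and Sertoli libraries, and Crabp1 only through the TSMC and 1 VSMC library. Rarb did so only through TSMC, PTM and Leydig libraries. These genes could be tested only because of the groups where they were high, so their calls against low groups describe levels. The labels do not say whether replicates came from different cultures or animals. The p-values therefore rest on the spread among the 3 libraries of each group, and that spread may be technical.

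The labels were set against markers of the cell types. The summed level of 8 germ cell genes was 12330 to 12943 FPKM in germ libraries and at most 15.7 FPKM in the others. The sum of 7 Leydig genes was 1096 to 7207 FPKM in Leydig libraries and 2335 to 4960 FPKM in PTM libraries, most of it Insl3. Cyp17a1, Lhcgr and Hsd17b3, which define adult Leydig cells, were all under 1 FPKM in the Leydig libraries. The sum of 6 smooth muscle genes was 8869 to 12077 FPKM in Sertoli libraries, above the 3088 to 3561 FPKM in PTM libraries. It was 4564 to 4884 FPKM in VSMC, 4764 to 5096 in ISMC, 4469 to 4587 in TSMC and at most 1275 in Leydig and germ cells. Sertoli libraries thus lay above every smooth muscle library, and PTM libraries below. The part of contractile cells in the Sertoli values below was not tested. The sum of 10 Sertoli genes was 369 to 647 FPKM in Sertoli libraries and 310 to 1017 FPKM in PTM libraries, and Amh was under 1 FPKM in both. The sum of 6 interstitial fibroblast genes was 2849 to 3958 FPKM in Leydig libraries, 210 to 318 in PTM, 258 to 272 in Sertoli cells and at most 141 elsewhere. The sum of 6 macrophage genes was 213 to 240 FPKM in VSMC, 427 to 594 in ISMC, 11.6 to 13.4 in TSMC, 95.7 to 121 in PTM, 17.7 to 256 in Leydig cells and at most 27.5 in Sertoli and germ cells. The sum of 6 endothelial genes was 209 to 226 FPKM in VSMC, 199 to 210 in ISMC, 22.6 to 25.8 in TSMC and at most 52.2 in the testicular groups. Sums of 5 mesothelial and 4 epithelial genes reached at most 29.0 and 15.5 FPKM in any library. Replicate 2 stood apart within PTM, Sertoli and germ cells, and the 3 Leydig libraries differed from one another. In bulk RNA, fewer cells of a type and less RNA per cell cannot be told apart.

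The 9 genes did not share one profile, as their plot by library shows. By mean level, Aldh1a1 was highest in PTM, Aldh1a2 and Aldh1a3 in Leydig cells, Cyp26b1 in Sertoli cells, and Rdh10, Crabp1, Crabp2 and Rarb in TSMC. Stra6 was high in PTM and Sertoli cells and near 0 in smooth muscle. Ordering the 7 groups by mean level for each gene gave 54 pairs of neighbours. Of these, 7 pairs differed by the call, and in 29 pairs the libraries of the neighbouring groups overlapped. Neighbours in an order of means are the closest groups by construction, and the same counts were not made over all genes. They therefore do not set these genes apart from others. The count of 7 was 13 and 14 at pseudocounts of 0.1 and 0.01 in place of 1, and 16 by adjusted p alone. Over all 21 pairs of groups and all genes tested, 30.0% of differences were called. Of its 21 pairs of groups, Aldh1a2 was called in 17, Aldh1a1 in 15, Crabp2 in 12, Cyp26b1 in 11, Stra6 in 10, Aldh1a3 in 9, Crabp1 in 6, Rdh10 in 5 and Rarb in 3.

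**Figure D1:**
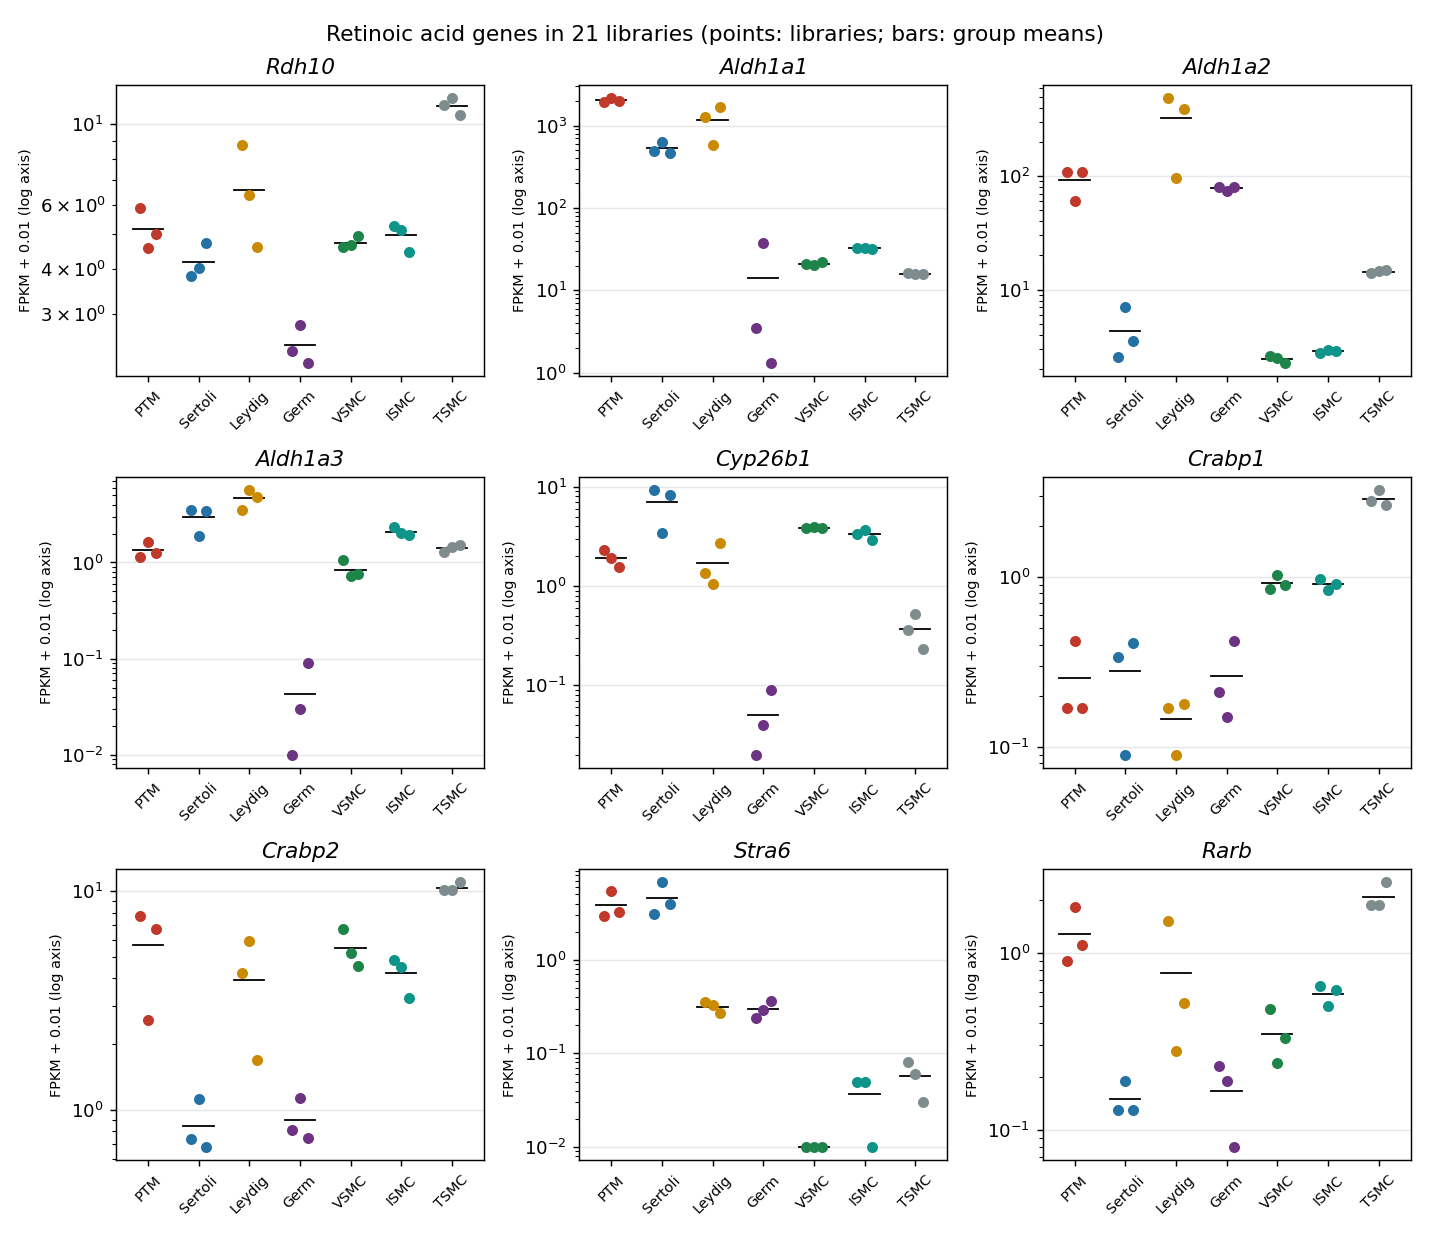
FPKM + 0.01 on a log axis for each of the 9 genes in the 21 libraries, with points for libraries and bars for the means of the 7 groups of 3. Aldh1a1 spans 1.32 FPKM in a germ library to 2159 FPKM in a PTM library, and the vertical scale differs between panels.

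Rdh10 lies on chromosome 1 from 16105882 to 16132550 on the plus strand of mm10, and its product catalyses the first oxidation. It was at 5.88, 4.56 and 4.98 FPKM in the PTM libraries, 3.82, 4.01 and 4.69 in Sertoli cells and 8.74, 6.39 and 4.57 in Leydig cells. In germ cells it was at 2.37, 2.80 and 2.20 FPKM. The smooth muscle values were 4.59, 4.63 and 4.91 FPKM in VSMC, 5.24, 5.12 and 4.44 in ISMC and 11.25, 11.77 and 10.57 in TSMC. Every TSMC library thus lay above every other library, every germ library lay below, and the groups between overlapped one another. Against PTM, TSMC was 2.18-fold higher in mean level, and the difference of -0.99 ± 0.15 on the log2 scale (SE, adjusted p = 1.49e-05 in limma) fell just short of the call. It reached the call, at -1.23 and -1.20, when libraries were quantile normalised or scaled by their median log ratio.

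Aldh1a1, on chromosome 19 from 20601982 to 20643462 on the plus strand, was the most abundant of the 9 genes by mean level in every group except germ cells, where Aldh1a2 was higher. The PTM libraries held 1964.49, 2158.97 and 2020.52 FPKM, a mean of 2048 ± 100 (SD, n = 3), which placed it at rank 11 to 16 of the 19285 genes. Sertoli libraries held 491.50, 638.61 and 463.50 FPKM and Leydig libraries 1260.20, 581.17 and 1709.26. The testicular somatic groups ranged from 463.50 to 2158.97 FPKM. All smooth muscle libraries lay between 15.79 and 32.59 FPKM, tightly grouped within VSMC at 20.77, 20.17 and 22.21, ISMC at 32.41, 32.59 and 32.07, and TSMC at 16.12, 15.96 and 15.79. In germ cells Aldh1a1 was at 3.52, 37.18 and 1.32 FPKM.

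Mean Aldh1a1 was 97.3-fold higher in PTM than in VSMC, 63.3-fold higher than in ISMC and 128-fold higher than in TSMC. The log2 fold changes were 6.54, 5.94 and 6.92, each with an SE of 0.64 and adjusted p of 1.27e-07, 4.44e-07 and 6.80e-08 in limma, with no overlap of libraries. Against germ cells the log2 fold change was 8.12 ± 0.64 (SE, adjusted p = 9.49e-10 in limma), while the ratio of means was 146. It was 9.30 without germ replicate 2 and 7.28 without germ replicate 3. Against Leydig cells it was 0.92 ± 0.64 (SE, adjusted p = 0.251 in limma), although the 3 PTM libraries lay above the 3 Leydig libraries. After quantile normalisation that difference was 1.31 with an adjusted p of 0.0494, and the adjusted p ranged from 0.0105 to 0.628 over the alternatives.

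Against Sertoli cells Aldh1a1 was 3.86-fold higher in PTM, or 1.96 ± 0.64 (SE, adjusted p = 0.0291 in limma) on the log2 scale, with every PTM library above every Sertoli library. The adjusted p ranged from 6.53e-05 to 0.0857 over 29 alternatives and the call was lost in 7 of them. It was lost at pseudocounts of 0.1 and 0.01 (adjusted p = 0.0517 and 0.0633) and without PTM replicate 1, 2 or 3 (0.0583, 0.0705 and 0.0667) or Sertoli replicate 1 or 3 (0.0762 and 0.0857). The log2 fold change stayed between 1.87 and 2.10 when single libraries were left out. Without germ replicate 2, whose 37.18 FPKM stood far from the other germ libraries and entered the pooled spread, the adjusted p was 6.53e-05. In a fit of these libraries with replicate number as a block the adjusted p was 0.0200.

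A near copy of Aldh1a1 complicates its reading. The coding sequence of Aldh1a7 was 91.6% identical to it over 1506 bases, so reads may have been shared between the genes by the authors' counting. Aldh1a7 was at 26.28, 26.88 and 26.35 FPKM in PTM, 0.92, 6.19 and 1.53 in Sertoli cells and 23.72, 39.23 and 22.16 in Leydig cells. It was between 9.68 and 12.10 FPKM in VSMC and ISMC and between 2.25 and 3.55 in TSMC, so that in the smooth muscle groups the levels of both genes were of similar order and Aldh1a1 is uncertain there. Aldh1a2 and Aldh1a3 were 69.8% and 69.2% identical to Aldh1a1 in coding sequence.

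Aldh1a2, on chromosome 9 from 71215789 to 71296243 on the plus strand, is the dehydrogenase that makes retinoic acid in the early embryo and is known from mouse spermatocytes. It was highest in Leydig cells at 488.42, 95.49 and 395.31 FPKM, where replicate 2 lay far below the other libraries. PTM libraries held 108.56, 60.25 and 109.74 FPKM and germ libraries 80.06, 74.71 and 79.79. Sertoli libraries held 2.51, 6.98 and 3.48 FPKM, at the level of VSMC with 2.58, 2.46 and 2.26 and ISMC with 2.74, 2.94 and 2.86. TSMC stood between these and the germ cells at 13.87, 14.47 and 14.90 FPKM. Aldh1a2 had 3 called steps between neighbours in the order of means: Leydig above PTM, germ above TSMC and TSMC above Sertoli.

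The mean of Aldh1a2 was 21.5-fold higher in PTM than in Sertoli cells, or 4.18 ± 0.42 (SE, adjusted p = 1.21e-06 in limma) on the log2 scale. Leydig cells stood 75.5-fold above Sertoli cells, and the log2 fold change of Sertoli against Leydig was -5.73 ± 0.42 (SE, adjusted p = 8.12e-09 in limma), or -6.46 without Leydig replicate 2. Between PTM and germ cells the difference of 0.19 ± 0.42 (SE, adjusted p = 0.664 in limma) was within the spread, and it turned to -0.30 under median scaling. PTM fell below Leydig cells by 1.55 on the log2 scale (SE 0.42, adjusted p = 0.00547 in limma), but Leydig replicate 2 lay inside the PTM range. The difference was -2.28 without that library and between -1.70 and -1.11 without any 1 other PTM or Leydig library. The call was lost in a fit of the PTM and Leydig libraries alone (adjusted p = 0.138), and its adjusted p ranged from 3.89e-06 to 0.138 over the alternatives. The interstitial fibroblast sum was also highest in Leydig libraries, at 3027, 3958 and 2849 FPKM, and within them Aldh1a2 was lowest where that sum was highest. The part of fibroblasts in the Leydig values of Aldh1a2, and of Aldh1a3, Dhrs3 and Adh1 below, was not tested.

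Aldh1a3, on chromosome 7 from 66390892 to 66427477 on the minus strand, was low everywhere. Leydig libraries held 3.53, 5.62 and 4.83 FPKM, Sertoli libraries 3.54, 1.87 and 3.40, and PTM libraries 1.13, 1.61 and 1.23. The 9 smooth muscle libraries lay between 0.72 and 2.33 FPKM. Germ libraries held 0.00, 0.02 and 0.08 FPKM, which is 0, 1 and 5 inferred fragments. Aldh1a3 was lower in PTM than in Leydig cells, at -1.27 ± 0.15 on the log2 scale (SE, adjusted p = 3.34e-06 in limma), and higher in PTM than in germ cells, at 1.16 ± 0.15 (SE, adjusted p = 1.18e-06 in limma). The latter rests on a group near 0, and it was 0.94 under quantile normalisation and 3.45 at a pseudocount of 0.1.

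The transcripts of the 3 retinal dehydrogenases were also added together. Their sum was 2074 to 2221 FPKM in PTM, 682 to 2109 in Leydig cells, 470 to 647 in Sertoli cells, 81.2 to 112 in germ cells and 23.4 to 37.5 in smooth muscle. Aldh1a1 made up 94.7 to 97.2% of it in PTM, 98.5 to 98.8% in Sertoli cells and 71.9 to 85.2% in Leydig cells. In germ cells Aldh1a2 made up 95.8, 66.8 and 98.3%. VSMC and ISMC were mainly Aldh1a1, at 85.2 to 88.1%, whereas in TSMC Aldh1a2 contributed 44.4, 45.4 and 46.3%. These shares are descriptions of the levels above and were not tested.

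**Figure D2:**
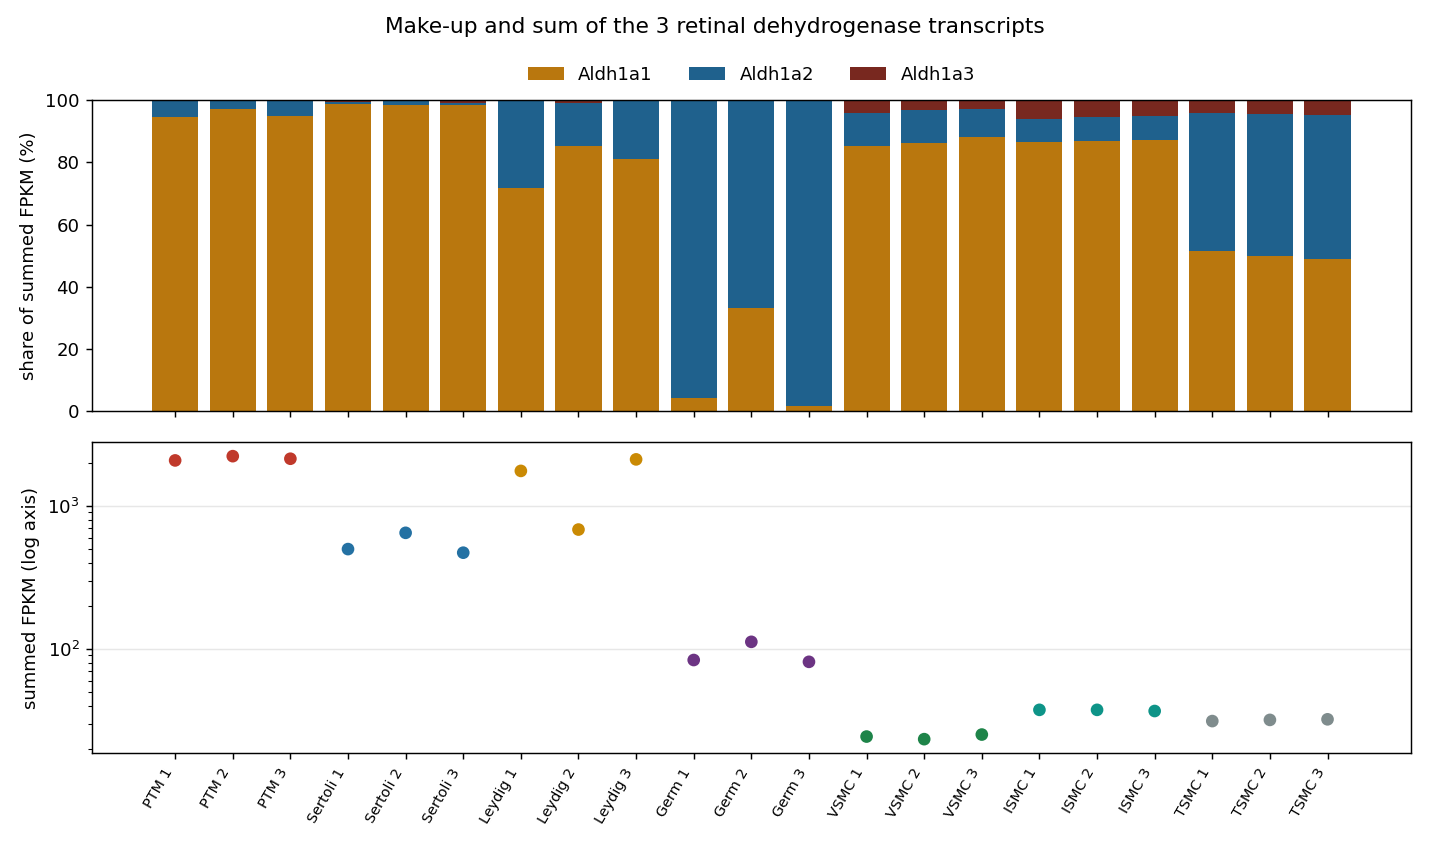
Top, the share of Aldh1a1, Aldh1a2 and Aldh1a3 in their summed FPKM, in percent, for each of the 21 libraries. Bottom, the summed FPKM of the same libraries on a log axis; Aldh1a2 makes up 66.8 to 98.3% of the sum in germ libraries and 44.4 to 46.3% in TSMC libraries.

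In testicular libraries the dehydrogenases were set beside the sum of 7 Leydig markers, because PTM libraries carried them too. Within germ cells the sum was 18.0, 140 and 12.9 FPKM in replicates 1, 2 and 3, and Aldh1a1 followed the same order. Replicate 2 held 131.56 FPKM of Insl3 against 15.76 and 11.12 in the others. Germ cell Aldh1a2 did not follow it: its level was 74.71 FPKM in replicate 2 and 80.06 and 79.79 in the others. Within Leydig cells Aldh1a1 took the order of the sum, which was 2442, 1096 and 7207 FPKM. That order is the order of Insl3, at 2228.25, 747.38 and 6770.29 FPKM. Star and Hsd3b1, of the same list, were highest in Leydig replicate 2, at 75.10 and 110.94 FPKM, and Star was highest in PTM replicate 2. The macrophage sum in Leydig libraries, at 88.4, 17.7 and 256 FPKM, had the order of the Leydig sum too. Within PTM the sum was 4889, 2335 and 4960 FPKM, and Aldh1a2 took its order while Aldh1a1 was highest in the library with the lowest sum. Sertoli libraries held 87.5 to 98.9 FPKM of the sum with 463.50 to 638.61 FPKM of Aldh1a1, whereas germ replicate 2 held a larger sum with 37.18 FPKM of Aldh1a1. These sums differ in make-up, since Star was at 74.02 to 78.23 FPKM and Insl3 at 6.18 to 9.33 in Sertoli libraries, while Star was at 1.08 FPKM in germ replicate 2. The part of Leydig cells in the PTM values, and of macrophages in the Leydig values, was not tested.

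**Figure D3:**
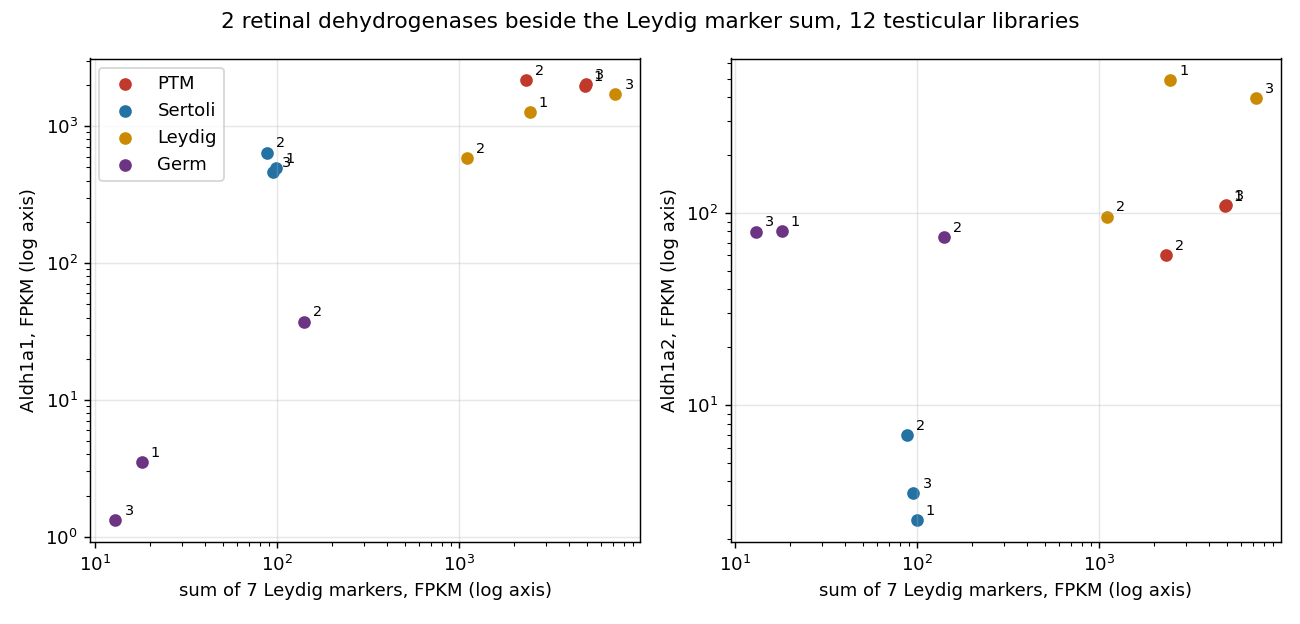
Aldh1a1 (left) and Aldh1a2 (right) in FPKM against the summed FPKM of 7 Leydig markers in the 12 testicular libraries, both axes logarithmic, with replicate numbers beside the points. Germ libraries hold 74.71 to 80.06 FPKM of Aldh1a2 while their marker sum runs from 12.9 to 140 FPKM.

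Cyp26b1, on chromosome 6 from 84571414 to 84593908 on the minus strand, encodes the enzyme that removes retinoic acid. It was highest in Sertoli libraries 1 and 3 at 9.17 and 8.28 FPKM, while Sertoli replicate 2 held 3.41. Within the Sertoli group that library held the largest sum of Sertoli markers, 647 FPKM, and the largest sum of smooth muscle genes, 12077 FPKM. The part of either cell type in the Cyp26b1 values was not tested. PTM libraries held 2.29, 1.90 and 1.53 FPKM and Leydig libraries 1.33, 1.04 and 2.70. VSMC libraries held 3.79, 3.89 and 3.82 FPKM, ISMC libraries 3.32, 3.67 and 2.91, and TSMC libraries only 0.35, 0.51 and 0.22. Germ libraries were at 0.01, 0.03 and 0.08 FPKM, or 1, 3 and 7 inferred fragments. The Sertoli mean was 3.65-fold above PTM and 4.11-fold above Leydig cells, with every Sertoli library above every library of both groups.

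PTM fell below Sertoli cells in Cyp26b1 by 1.37 on the log2 scale (SE 0.24, adjusted p = 4.12e-04 in limma). In a fit of these libraries with replicate number as a block the adjusted p was 0.0860, and without the block it was 0.0593, so the call was lost in both. Over the alternatives the adjusted p ranged from 1.73e-06 to 0.0860. Sertoli cells exceeded Leydig cells by 1.52 ± 0.24 (SE, adjusted p = 5.74e-05 in limma). PTM exceeded TSMC by 1.09 ± 0.24 (SE, adjusted p = 8.48e-04 in limma), and this value dropped below the fold threshold under quantile normalisation (0.77), median scaling (0.94) and without PTM replicate 1 (just under 1). The related enzymes Cyp26a1 and Cyp26c1 were at most 0.14 FPKM in any library, so Cyp26b1 was the only gene of this family above that level. The ratio of Aldh1a2 to Cyp26b1 in FPKM was 31.7 to 71.7 in PTM, 28.4 to 67.7 in TSMC and 91.8 to 367 in Leydig cells. In Sertoli cells it lay between 0.274 and 2.05, in VSMC between 0.592 and 0.681, and in ISMC between 0.801 and 0.983. In germ cells it was 8006, 2490 and 997, over Cyp26b1 values of 1 to 7 fragments. These ratios compare transcripts and say nothing of the amount of retinoic acid.

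CRABP2 delivers retinoic acid to its nuclear receptor, and CRABP1 holds it in the cytoplasm. Crabp2, on chromosome 3 from 87948693 to 87953372 on the plus strand, was at 10.08, 10.09 and 10.96 FPKM in TSMC, above every other library. PTM libraries held 7.72, 2.57 and 6.72 FPKM, with replicate 2 low. Leydig libraries held 4.21, 5.90 and 1.68 FPKM, VSMC 6.72, 5.24 and 4.57, and ISMC 4.86, 4.52 and 3.25. Sertoli cells at 0.73, 1.11 and 0.67 and germ cells at 0.80, 1.13 and 0.74 FPKM formed a low pair, below every library of the other groups. The single called step in the order of the groups lay between Leydig and germ cells.

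Crabp2 was higher in PTM than in Sertoli cells by 1.77 ± 0.31 (SE, adjusted p = 3.42e-04 in limma). With replicate number as a block in a fit of these libraries the adjusted p was 0.0849, the highest over the alternatives, which began at 1.92e-05. PTM exceeded germ cells by 1.72 ± 0.31 (SE, adjusted p = 4.13e-05 in limma), or 1.02 after quantile normalisation. At a pseudocount of 0.1 these differences of Crabp2 were 2.51 and 2.42. Sertoli cells fell below Leydig cells by 1.33 (SE 0.31, adjusted p = 0.00169 in limma), and this call was lost when these libraries were fitted alone (adjusted p = 0.0530, range over the alternatives 9.48e-05 to 0.0739).

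Crabp1, on chromosome 9 from 54764748 to 54773110 on the plus strand, was near the limit of detection in the testis. Its values there ran from 0.08 to 0.41 FPKM, where 1 fragment is worth 0.0640 to 0.0719 FPKM. VSMC held 0.84, 1.02 and 0.89 FPKM, ISMC 0.96, 0.83 and 0.90, and TSMC 2.77, 3.22 and 2.64. Every smooth muscle library lay above every testicular library, and TSMC lay above the other smooth muscle groups. Against TSMC, PTM fell by 1.64 on the log2 scale (SE 0.10, adjusted p = 3.62e-10 in limma), or by 3.19 at a pseudocount of 0.1. Against VSMC and ISMC the log2 fold changes were -0.63 and -0.61 (SE 0.10, adjusted p = 3.56e-05 and 4.87e-05 in limma), under the fold threshold. They became -1.64 and -1.61 with a pseudocount of 0.1 and were then called.

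Stra6, on chromosome 9 from 58129088 to 58153997 on the plus strand, encodes the receptor for retinol uptake. PTM libraries held 2.94, 5.44 and 3.25 FPKM and Sertoli libraries 3.11, 6.71 and 3.93. Leydig cells held 0.34, 0.32 and 0.26 and germ cells 0.23, 0.28 and 0.35 FPKM. It was listed at 0 in all 3 VSMC libraries, at 0.04, 0.04 and 0 in ISMC, and at 0.07, 0.05 and 0.02 in TSMC. PTM and Sertoli libraries overlapped, and every library of both lay above all others. PTM and Sertoli cells exceeded Leydig cells by 1.87 and 2.04 on the log2 scale (SE 0.18, adjusted p = 2.04e-07 and 4.73e-08 in limma), or by 3.24 and 3.46 at a pseudocount of 0.1. Replicate 2 was the highest library in both groups, and it also held the largest sum of Sertoli markers, 1017 FPKM in PTM and 647 FPKM in Sertoli cells. Members of that list did not all go this way. Sox9 and Fshr were highest in PTM replicate 2, at 61.00 and 4.20 FPKM, but lowest in Sertoli replicate 2, at 43.05 and 1.15 FPKM. The part of Sertoli cells in the PTM values of Stra6 was not tested.

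Rarb lies on chromosome 14 from 16430839 to 17082331 on the minus strand. It encodes a retinoic acid receptor and is itself a textbook target of retinoic acid, through a direct repeat in the promoter of one of its starts. The promoter is shown because a motif of this kind was found in it alone among the 6 genes of the set with a promoter in the RefSeq table. The 250 bases upstream of that start, chr14:16575477-16575726 on the minus strand of GRCm38.p6 in RefSeq, are printed 5′ to 3′ with the direct repeat in capitals.
Rarb promoter: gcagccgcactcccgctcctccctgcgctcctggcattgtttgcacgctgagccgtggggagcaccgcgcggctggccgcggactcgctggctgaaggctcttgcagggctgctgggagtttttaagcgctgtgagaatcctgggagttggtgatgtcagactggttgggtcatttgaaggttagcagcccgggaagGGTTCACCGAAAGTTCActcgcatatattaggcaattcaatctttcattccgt

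The search looked on both strands, from 250 bases before to 50 bases after each start, for a repeat of short sites spaced by 5 or 2 bases. Each site could be AGGTCA or its variant AGTTCA, or the site GGGTCA or its variant GGTTCA. The repeat in Rarb spans positions -53 to -37 from the start. A repeat spaced by 5 was found in 32 of 32851 mouse promoters (0.0974%) and one spaced by 2 in 88 (0.268%). Over 10 promoters of the 6 genes, 1 gene held the former and 0 held the latter. Cyp26a1, which is not one of the 9 genes, also held a repeat spaced by 5, at -32 to -16 on the other strand. A match describes letters in the window and shows no binding.

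Rarb was low in every group. TSMC libraries held 1.87, 1.86 and 2.50 FPKM, PTM libraries 0.89, 1.82 and 1.10, and Leydig libraries 1.51, 0.27 and 0.51. ISMC held 0.64, 0.49 and 0.61 FPKM, VSMC 0.47, 0.23 and 0.32, germ cells 0.22, 0.18 and 0.07, and Sertoli cells 0.12, 0.18 and 0.12. Every TSMC library lay above all others, and every PTM library lay above all Sertoli, germ, VSMC and ISMC libraries. None of the neighbours in this order was called. PTM exceeded Sertoli cells by 0.97 ± 0.18 (SE, adjusted p = 7.13e-04 in limma) and germ cells by 0.95 ± 0.18 (SE, adjusted p = 9.52e-05 in limma), just under the fold threshold. At a pseudocount of 0.1 these were 2.46 and 2.41 and both were called. In the authors' deposited table the log2 fold changes were 3.33 and 2.98.

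Exons of Rarb overlap those of Top2b on the opposite strand by 1793 bases in the RefSeq transcripts. Whether reads were counted by strand is not given in the sources used here, so reads of the genes cannot be told apart in the overlap. Top2b was at 17.29 to 21.07 FPKM in TSMC, 16.26 to 18.14 in PTM, 14.24 to 21.98 in Sertoli cells and 22.69 to 26.75 in VSMC and ISMC. It was at 18.26 to 22.28 FPKM in Leydig cells and at 0.68 to 1.06 in germ cells, where Rarb was at 0.07 to 0.22. By mean level Top2b was highest in VSMC and ISMC, and Rarb in TSMC. The part of Top2b reads in the Rarb values was not tested.

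Within the testis, PTM differed from Sertoli cells in 4 of the 9 genes, against 6.06% of all genes tested: Aldh1a1, Aldh1a2 and Crabp2 were higher in PTM and Cyp26b1 was lower. With replicate number as a block the count was 2, Aldh1a1 and Aldh1a2. Libraries of the groups did not overlap for 6 of the 9 genes, and for 36.6% of all genes. PTM differed from Leydig cells in 3 genes, against 11.1% of all genes, with Stra6 higher and Aldh1a2 and Aldh1a3 lower. Sertoli differed from Leydig cells in 4 genes, against 12.9% of all genes, with Cyp26b1 and Stra6 higher in Sertoli cells and Aldh1a2 and Crabp2 lower. Stra6 could be tested only through PTM and Sertoli libraries, so its calls against Leydig and germ cells describe levels. Against germ cells 5 genes were higher in PTM and 0 were lower in limma, beside 42.9% of all genes higher in PTM and 70.5% called in either direction. At an unadjusted p under 0.05, 0 were lower, and 0 were lower in the authors' deposited table. The genes that did not pass there were Rdh10, Aldh1a2, Crabp1 and Rarb.

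Against smooth muscle, PTM exceeded VSMC in 3 genes, where 12.6% of all genes were higher in PTM and 19.0% were called in either direction. It exceeded ISMC in 3 genes as well, where these shares were 10.7% and 17.7%, and the genes were Aldh1a1, Aldh1a2 and Stra6 in both. Against TSMC, 4 genes were higher in PTM, the same 3 and Cyp26b1, and Crabp1 was lower, with 18.5% of all genes called. These comparisons share the PTM libraries. Stra6 and Crabp1 passed the filter only through groups where they were high, so their calls here describe levels. Without the filter, 3, 3 and 5 genes were called against VSMC, ISMC and TSMC. For Stra6 the log2 fold changes were 2.21 against ISMC and 2.19 against TSMC (SE 0.18, adjusted p = 1.01e-08 and 1.15e-08 in limma), and 4.94 and 4.72 at a pseudocount of 0.1, over 0 to 4 inferred fragments in these smooth muscle libraries. The median log2 fold change of the 9 genes was 0.25 against Sertoli cells, 0.15 against Leydig cells and 1.16 against germ cells, beside 0.06, 0.10 and 0.62 over all genes. It was 0.34, 0.27 and -0.06 against VSMC, ISMC and TSMC, beside 0.19, 0.14 and 0.13.

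**Figure D4:**
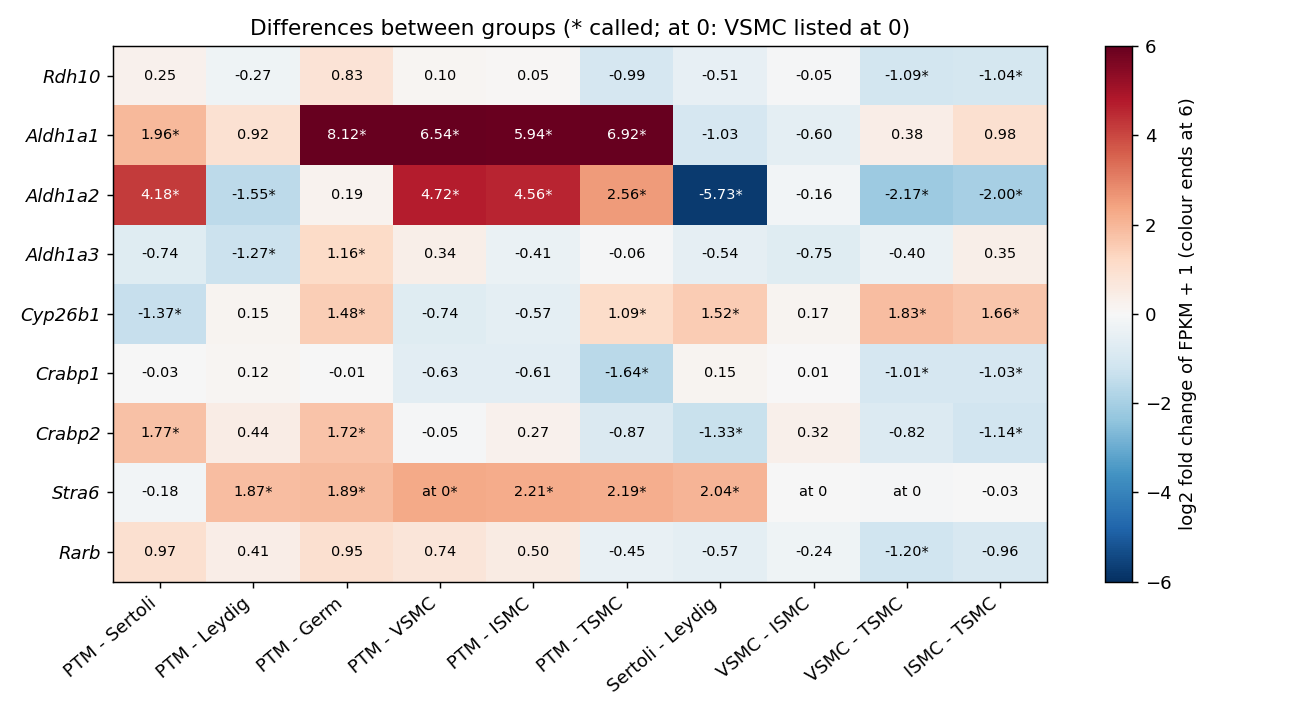
Log2 fold changes of FPKM + 1 for the 9 genes (rows) in 10 comparisons of groups (columns, first minus second group), with an asterisk where the gene was called. Aldh1a1 is 5.94 to 8.12 higher in PTM than in germ and smooth muscle cells, with the germ value between 7.28 and 9.30 when single libraries are left out; the cells marked "at 0" give no fold because VSMC is listed at 0.

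The smooth muscle groups were also set against one another, a comparison chosen after the data were seen. VSMC and ISMC differed in 0 of the 9 genes by the limma call, against 0.831% of all genes, with 0 higher and 1 lower in VSMC at an unadjusted p under 0.05. That gene was Aldh1a3 (log2 fold change -0.75 ± 0.15 SE, adjusted p = 0.0104 in limma). TSMC differed from VSMC in 5 genes (4.58% of all genes) and from ISMC in 5 genes (4.17%). The endothelial and macrophage sums given above also separated TSMC from these groups, and their part in the differences was not tested. Rdh10 was higher in TSMC than in VSMC and ISMC, by log2 fold changes of 1.09 and 1.04 read in that direction, and Aldh1a2 was 5.92-fold and 5.06-fold higher in mean level. Crabp1 was higher in TSMC than in both, and Cyp26b1 was lower, by 1.83 and 1.66 on the log2 scale (SE 0.24, adjusted p = 2.29e-05 and 7.76e-05 in limma). Rarb was called against VSMC alone and Crabp2 against ISMC alone, but their differences against the other group, -0.96 for Rarb and -0.82 for Crabp2, had the same sign. Without ISMC replicate 3 the count against ISMC was 3. Crabp1 and Rarb passed the filter in part through the TSMC libraries, where they were high, so their calls here likewise describe levels.

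The spread used in these tests was pooled over 7 groups, and smooth muscle libraries varied least. In fits of the pair of groups alone, Aldh1a1 differed between VSMC and ISMC with an adjusted p of 0.00113, between VSMC and TSMC with 9.91e-04 and between ISMC and TSMC with 4.31e-06. The pooled fit gave 0.813 for VSMC against TSMC, 0.426 for ISMC against TSMC and a value that rounds to 1 for VSMC against ISMC. In the order VSMC against ISMC, VSMC against TSMC and ISMC against TSMC, the log2 fold changes were -0.60, 0.38 and 0.98, all under the fold threshold.

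Other genes of vitamin A handling were read from 5 lists. Of 14 tested dehydrogenases and reductases outside the set, 5 were higher in PTM than in Sertoli cells and 0 were lower, with a median log2 fold change of 0.46 beside 0.06 over all genes. Aldh1a7, which may share reads with Aldh1a1, was among the higher genes here (log2 fold change 3.07). It was also among those higher in PTM than in germ and smooth muscle cells below. By the same call, 514 of all 14444 genes were higher and 362 lower in that comparison. At an unadjusted p under 0.05 the counts of the list were 9 higher and 0 lower. Counts at an unadjusted p are not given over all genes, here or below, so they have no all-gene share beside them. Against Leydig cells 2 genes of the list were higher in PTM and 1 lower (median 0.13 beside 0.10), beside 943 and 660 of all genes. At an unadjusted p under 0.05 the list had 6 higher and 4 lower there. Dhrs3, a reductase that turns retinal back to retinol, was at 87.76, 64.81 and 94.24 FPKM in PTM and 13.77, 50.96 and 17.50 in Sertoli cells (log2 fold change 1.76 ± 0.31 SE, adjusted p = 3.26e-04 in limma). It was highest in Leydig cells at 150.97, 130.79 and 167.34 FPKM. Adh1, an alcohol dehydrogenase that oxidises retinol, was at 69.88, 210.95 and 107.41 FPKM in PTM and 253.21 to 337.47 in Leydig cells. Its smooth muscle values lay between 0.72 and 1.30 FPKM. In this list 8, 7 and 6 genes were higher in PTM than in VSMC, ISMC and TSMC, and 0 were lower in each, also at an unadjusted p under 0.05. The medians of the list were 1.23, 0.97 and 0.81, beside 0.19, 0.14 and 0.13 over all genes. By the call, 1823 of all genes were higher and 920 lower in PTM than in VSMC. These counts were 1539 and 1011 against ISMC, and 1637 and 1040 against TSMC.

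Against germ cells, 10 dehydrogenases and reductases were higher in PTM and 1 was lower, and 6 genes of uptake and storage were higher and 4 lower, beside 6193 higher and 3987 lower of all genes. Some genes of the lists were higher in germ cells. Rdh11, another enzyme that interconverts retinol and retinal, was at 182.53, 163.05 and 186.57 FPKM there and between 13.24 and 20.87 elsewhere. Lrat, which stores retinol as an ester, was at 2.93, 2.40 and 2.83 FPKM in germ cells and at most 0.17 in any other library. Lipe, a lipase that can release retinol from its esters, was lower in PTM than in germ cells by 3.70 on the log2 scale (SE 0.19, adjusted p = 1.09e-12 in limma). Stra8, which retinoic acid induces before meiosis, was at 1.16, 0.15 and 1.02 FPKM, with replicate 2 low.

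Of 11 tested genes of uptake and storage, 3 were higher in PTM than in Sertoli cells and 2 lower, with a median log2 fold change of 0.06 beside 0.06 over all genes. Rbp4, the carrier that hands retinol to STRA6, was at 13.94, 61.32 and 20.06 FPKM in Sertoli cells and 3.12, 2.42 and 2.95 in PTM (log2 fold change -2.82 ± 0.41 SE, adjusted p = 5.50e-05 in limma). In each of the comparisons of PTM with VSMC, ISMC and TSMC, 5 genes of this list were higher in PTM and 0 were lower, also at an unadjusted p under 0.05. The medians were 0.96, 0.90 and 0.68, beside 0.19, 0.14 and 0.13 over all genes. By the call, 1823 of all genes were higher and 920 lower in PTM than in VSMC. These counts were 1539 and 1011 against ISMC, and 1637 and 1040 against TSMC.

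Among 19 tested receptors and partners, 0 differed between PTM and Sertoli cells by the limma call. At an unadjusted p under 0.05, 4 were higher and 5 lower (median log2 fold change 0.02, beside 0.06 over all genes). Rarg, a receptor of the same family as Rarb, was at 12.06, 8.14 and 10.80 FPKM in PTM and at 27.44 to 33.82 in the smooth muscle groups. Fabp5, a binding protein that can carry retinoic acid to another nuclear receptor, was at 246.03, 294.60 and 250.40 FPKM in PTM and 31.20 to 35.80 in TSMC (log2 fold change 2.92 ± 0.24 SE, adjusted p = 1.33e-08 in limma). Nr2f1, an orphan nuclear receptor induced by retinoic acid, was at 12.21, 11.54 and 12.32 FPKM in TSMC and at most 4.28 elsewhere.

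Genes known to respond to retinoic acid were called in both directions. Of 20 tested, 3 were higher and 7 lower in PTM than in VSMC, with the same counts against ISMC, and 2 were higher and 6 lower against TSMC. Against Sertoli cells 1 was higher and 1 was lower, against Leydig cells 3 were higher and 4 lower, and against germ cells 8 were higher and 4 lower. Of all genes, 1823 were higher and 920 lower against VSMC, 1539 and 1011 against ISMC, and 1637 and 1040 against TSMC. These counts were 514 and 362 against Sertoli cells, 943 and 660 against Leydig cells, and 6193 and 3987 against germ cells. Rarres1 was at 169.50, 51.74 and 176.11 FPKM in PTM, 102.38, 18.54 and 145.76 in Leydig cells and 1.18 to 1.86 in Sertoli cells. Within PTM and within Leydig cells it took the order of the Leydig marker sum, which within Leydig cells was also the order of the macrophage sum. Aldh1a2 took the order of the Leydig marker sum within PTM but not within Leydig cells. Rarb was highest in the PTM library with the least Rarres1. The part of Leydig cells and of macrophages in these values was not tested. Hoxa5, a homeobox gene of axial position, was at 17.65 to 22.24 FPKM in all smooth muscle libraries and at most 0.84 in testicular ones. Ret, a receptor tyrosine kinase, was at 22.10 to 24.09 FPKM in VSMC and ISMC and at 1.06 to 1.19 in TSMC. The medians of this list against VSMC, ISMC and TSMC were -0.04, -0.03 and -0.16, beside 0.19, 0.14 and 0.13 over all genes.

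**Figure D5:**
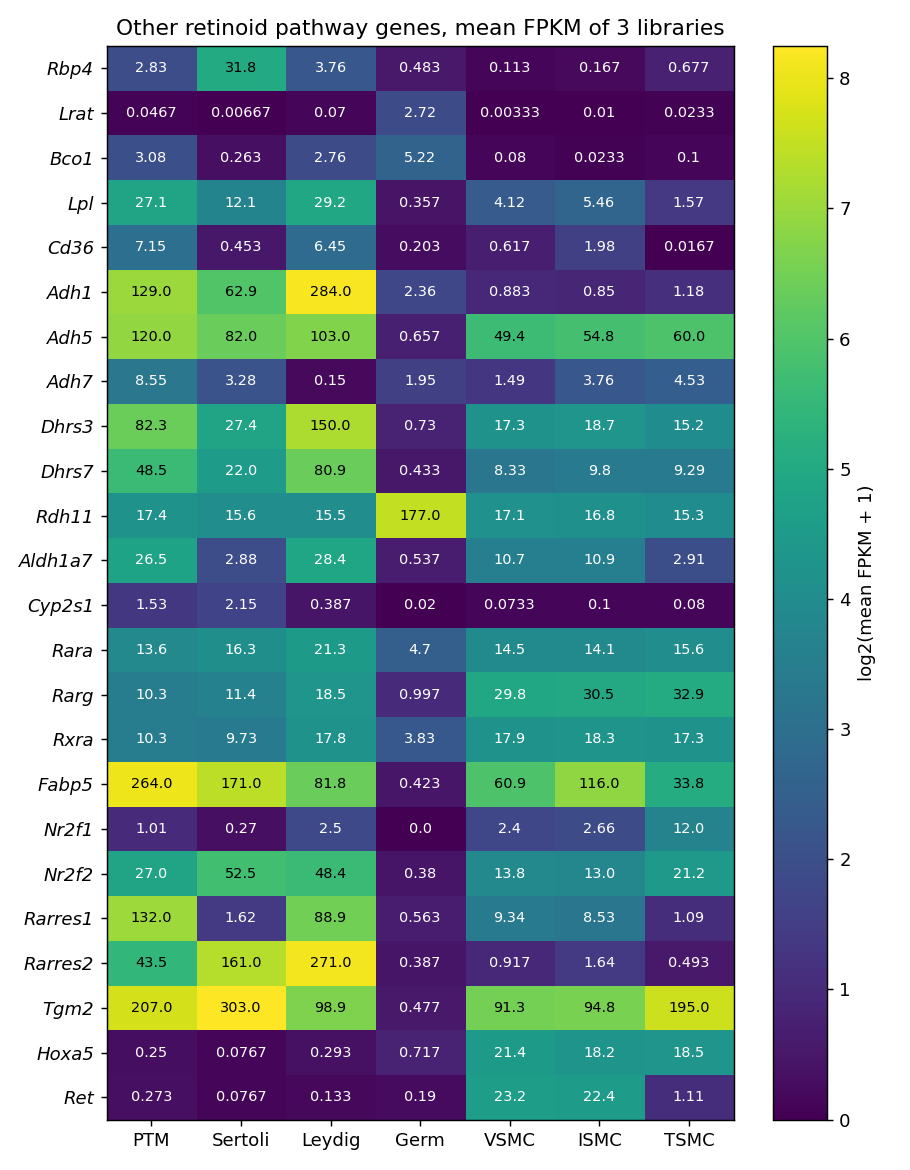
Mean FPKM of 3 libraries for 24 other genes of vitamin A handling (rows) in the 7 groups (columns), with colour for log2 of the mean plus 1. Adh1 and Dhrs3 are highest in Leydig cells at 284 and 150.0 FPKM, Rdh11 in germ cells at 177 FPKM and Fabp5 in PTM at 264 FPKM.

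For each of the 9 genes, the genes with the most similar profile were taken by Pearson correlation of log2(FPKM + 1) over the 21 libraries, among 11184 genes. Libraries of a group are not independent, so these values describe the profile. Stra6 was most like Scin, with r = 0.990, and Cst12, one of the Sertoli markers used above, with r = 0.986. Aldh1a1 was most like Arhgap18, with r = 0.971, and Aldh1a2 most like the metallothionein Mt1, with r = 0.947. Crabp1 was most like Mcpt8 (r = 0.975), a protease of basophils that was at a mean of 25.9 FPKM in TSMC. Aldh1a3 was most like Laptm4a (r = 0.945), Cyp26b1 most like Mcu (r = 0.910) and Rdh10 most like Ptk7 (r = 0.902). Crabp2 and Rarb had weaker best matches, Pik3r4 at r = 0.887 and Plin2 at r = 0.861.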

How the data were processed

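The authors' deposited table gives FPKM per gene and library to 2 decimals, with log2 fold changes and q-values for pairs of groups, both made by the authors. The submitters' processing notes name RSEM 1.2.12, HISAT2 2.0.4, Bowtie2 2.2.5 and the build mm10, in no stated role. Of 22135 rows, 2850 had no FPKM, and 4 columns of a group with no sample in the labels were not used. Coordinates are those of the deposited table.

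The model was fitted with limma 3.58.1 (R 4.3.3) to log2(FPKM + 1) of the genes that reached 1 FPKM in 3 or more libraries, as 7 group means with a trend in the variance (14 residual degrees of freedom). Tests were two-sided. Alternatives were pseudocounts of 0.1 and 0.01, no filter or a filter of 5 FPKM, quantile normalisation, scaling by the median log ratio, fits of 2 groups with and without replicate number as a block, each library left out, adjusted p alone, and the authors' calls. The fit was checked on simulated data.

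Replicate numbers were checked for pairing by how far libraries of one number departed from their groups together. PTM and Sertoli cells gave correlations of 0.227, 0.250 and 0.103, the 1 pair of groups of 21 with all over 0.1, so the block is given for it. It took the calls over all genes from 876 to 551.

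Depth was inferred from values of transcripts of 800 to 1500 bases: 86.2 to 94.0% of low values were whole fragments within 0.2, against 40% by chance. Fragment numbers are approximate. Variance between libraries of a group was 1.24 to 2.30 times sampling noise in smooth muscle and 1.66 to 23.2 times in testicular groups, so no pair agreed within sampling noise.

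The 9 genes, the lists and the rule for naming other genes were chosen with earlier results of these data known. The rule named, per list and comparison, up to 3 called genes with the largest change, libraries that did not overlap, and a mean of 5 FPKM or more in one group. Rdh11, Lrat and Stra8 were named after their values were seen. 1 gene named by the rule is not reported here.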

Additional observations from a re-analysis of the deposited data

How the results depend on the processing

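The counts of genes called moved by more than 1.5 times under some settings. A filter of 5 FPKM left 11558 genes to test, and of the 9 genes only Rdh10, Aldh1a1, Aldh1a2 and Crabp2. The counts were then 1 for PTM against Leydig, 2 against germ cells and 2 against TSMC. They were 2 for Sertoli against Leydig, 2 for VSMC against TSMC and 3 for ISMC against TSMC. By adjusted p alone they were 6 against VSMC, 6 against ISMC, 8 against TSMC, 7 for Sertoli against Leydig and 1 for VSMC against ISMC. At pseudocounts of 0.1 and 0.01, PTM against VSMC gave 5 and 5, and at 0.1 VSMC against ISMC gave 1. Calls over all genes for PTM against VSMC rose too, from 1823 higher and 920 lower. They were 2786 and 1283 at 0.1, and 3057 and 1313 at 0.01. By the calls in the authors' deposited table, PTM against VSMC gave 6 and against ISMC 5. Calls over all genes at the 5 FPKM filter, by adjusted p alone and by the authors are not given here. These moves therefore do not set the 9 genes apart from others. With the replicate block 2 passed for PTM against Sertoli and 2 for Sertoli against Leydig. Departures of same-numbered Sertoli and Leydig libraries from their groups had negative correlations, of -0.266, -0.375 and -0.072. In the blocked fit of Sertoli against Leydig, Cyp26b1 and Crabp2 were lost (adjusted p = 0.0611 and 0.0739 in limma). Called neighbours numbered 13 and 14 at pseudocounts of 0.1 and 0.01 and 16 by adjusted p alone, against 7. The block changed no other call of the 9 genes except Aldh1a2 for PTM against Leydig (adjusted p = 0.0673).

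With single libraries left out, counts ran from 3 to 4 for PTM against Sertoli, 5 to 6 against germ cells and TSMC, 4 to 5 for Sertoli against Leydig, 4 to 5 for VSMC against TSMC and 3 to 6 for ISMC against TSMC. Called neighbours ran from 6 to 9. The counts of 3 against Leydig, VSMC and ISMC and of 0 for VSMC against ISMC did not move.

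The sign turned only in differences that were not called. Under quantile and median scaling, Rdh10 was at -0.16 and -0.17 against VSMC and -0.15 and -0.19 against ISMC, and Cyp26b1 at -0.06 and -0.01 against Leydig cells. Aldh1a2 was at -0.30 against germ cells under median scaling, and Crabp1 at -0.01 against Leydig cells under quantile normalisation. Crabp2 was at 0.05 against VSMC in the authors' deposited table. With single libraries left out, PTM minus the other group ran from -0.04 to 0.12 for Rdh10 against ISMC, from -0.14 to 0.00 for Aldh1a3 against TSMC and from -0.02 to 0.41 for Cyp26b1 against Leydig. It ran from -0.14 to 0.05 for Crabp1 against Sertoli and from -0.10 to 0.08 against germ cells, from -0.30 to 0.35 for Crabp2 against VSMC and from -0.40 to 0.08 for Stra6 against Sertoli. The cause was not tested.

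Scaling also moved the median of all genes, from 0.62 to 0.28 (median log ratio) and 0.26 (quantile) against germ cells and to about 0 in the other comparisons. The share of called genes that were higher in PTM went from 66.5 to 47.1% against VSMC, from 60.4 to 43.0% against ISMC, from 61.2 to 47.3% against TSMC and from 58.8 to 40.2% against Leydig cells under the former. Low depth per gene limits Crabp1, Rarb, smooth muscle Stra6 and germ cell Aldh1a3 and Cyp26b1.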
